A study of Mus musculus with 8 samples.

Results

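The nuclear respiratory chain subunits are the protein-coding genes of the nucleus that build the complexes of mitochondrial oxidative phosphorylation. They were chosen by symbol among the genes counted, as names that begin with Nduf and a subunit letter (a, b, c, s or v) and number, as Sdha to Sdhd, and as names that begin with Uqcr, with Cox and a digit of 4 to 8, or with Atp5, leaving out pseudogenes. The rule gave 85 of 54838 gene IDs, with 37 in complex I, 4 in complex II, 8 in complex III, 18 in complex IV and 18 in complex V. Of these, 78 had enough reads to be tested. The name rule is not the exact makeup of each complex. Ndufa4, for example, is today also assigned to complex IV, and Cox7a2l and Atp5s are partners rather than core parts.

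RNA of 8 pieces of liver was sequenced in bulk, 4 labelled tumour and 4 labelled non-tumour. All came from male wild-type C57BL/6J mice that had received the liver carcinogen diethylnitrosamine by intraperitoneal injection on day 15 and a high-fat diet with SW, which the labels do not spell out. The diet is labelled as lasting 30 weeks, and the time point as 30 weeks from the injection. There were no untreated mice, so carcinogen and diet are shared by both groups, and the labels do not say which pieces came from which mouse.

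Complex I takes electrons from NADH, complex II takes them from succinate, and complex III passes them through cytochrome c to complex IV, where oxygen is reduced. Complexes I, III and IV pump protons across the inner mitochondrial membrane, and complex V, the ATP synthase, uses that gradient to make ATP. Most subunits are small proteins encoded in the nucleus, and complexes I, III, IV and V also need subunits encoded in mitochondrial DNA. Liver runs this pathway at a high rate, because gluconeogenesis, urea synthesis and fatty acid oxidation all depend on it.

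Nuclear subunit genes are known to share binding sites for NRF1, for ETS factors such as GABP, for YY1 and for estrogen-related receptors in their promoters. RefSeq promoters of GRCm38.p6, from 250 bases before to 50 bases after the transcription start, were found for 68 of the 85 members. Each motif was searched as fixed letters on both strands. The NRF1 palindrome, spelled by the capitals of the first windows printed here, occurred in 5 members (7.35%), against 1.07% of 27025 genes and 2.23% of the 10143 genes that were tested and had a promoter. The YY1 letters AAGATGGC occurred in 10 members (14.7%), against 3.19% of all genes and 5.17% of tested genes. The ETS letters CCGGAAG occurred in 16 members (23.5%), against 9.93% and 19.6%, and the letters AAGGTCA of estrogen-related receptors in 8 members (11.8%), against 5.38% and 4.26%. The letters TATAAA occurred in 7 members (10.3%), against 15.7% and 9.52%. These are descriptions of letters, and a match is not shown to be a bound site. The 5 windows with the NRF1 letters are shown 5′ to 3′ on the strand of the gene, with those letters in capitals, because they place the same palindrome beside members of complexes I, III, IV and V.
Ndufa11: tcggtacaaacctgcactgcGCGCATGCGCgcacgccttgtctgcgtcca
Uqcrc1: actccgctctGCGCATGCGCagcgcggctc
Cox6a1: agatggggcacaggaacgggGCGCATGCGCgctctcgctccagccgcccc
Atp5g2: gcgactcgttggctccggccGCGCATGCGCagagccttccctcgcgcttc
Atp5k: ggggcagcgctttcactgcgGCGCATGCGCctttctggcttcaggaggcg
They lie at chr17:56717682-56717731 on the plus strand, chr9:108936668-108936697 on the plus strand, chr5:115349091-115349140 on the minus strand, chr15:102671060-102671109 on the minus strand and chr5:108434420-108434469 on the minus strand. The palindrome of Cox6a1 began 162 bases before the start, those of Ndufa11, Atp5k and Atp5g2 began 60, 50 and 42 bases before it, and that of Uqcrc1 began 31 bases inside the transcript.

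The YY1 letters sat in a different place. In 8 of the 10 members the ATG within them was the annotated start codon, so the motif overlapped the first codons. A selection is shown with the motif in capitals and a short flank, because the members printed, of complexes I and V, share this arrangement.
Ndufa3: cgccaagaacAAGATGGCcgggagtaag
Ndufa9: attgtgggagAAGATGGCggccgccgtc
Ndufc1: cctgcggaacAAGATGGCgccgtccgta
Ndufs6: ggtcaccggcAAGATGGCggcggtgct
Ndufs7: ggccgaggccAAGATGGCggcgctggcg
Atp5j2: ccaggacttcAAGATGGCgtcactcggt
They lie at chr7:3617385-3617412 (plus strand), chr6:126849098-126849125 (minus), chr3:51408916-51408943 (minus), chr13:73328433-73328459 (minus), chr10:80249463-80249490 (plus) and chr5:145191501-145191528 (minus). The other members with the letters were Ndufb8 and Ndufs4, also at the start codon, Atp5j, 88 bases before the start, and Atp5f1, on the opposite strand.

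The libraries held 15446690 (non-tumour 3) to 21977052 (tumour 1) reads in genes. Tumour 2 and tumour 4 were nearly the same library, and so were non-tumour 2, 3 and 4. Per degree of freedom, the chi-square between gene counts was 1.58 to 3.28 in these 4 pairs and 71.7 to 165 in the other 24. They were therefore summed and counted once, which left 3 tumour and 2 non-tumour profiles. Means and SDs below are over profiles, and p-values measure only the spread between them. Among the 13650 genes tested, the quasi-likelihood test of edgeR called 0 genes after Benjamini-Hochberg adjustment, and 451 had an unadjusted p under 0.05 (2.03% of genes higher in tumour and 1.27% lower). DESeq2 called 2 genes and limma voom called 0. Tumour 3 had the highest level of 68 of the 78 members, so the comparison is also given without it. It was not the only profile to differ. Over the 75 members with most reads, the median log2 ratio of tumour 3 to non-tumour 2, 3 and 4 was 0.24 to 0.29. That of non-tumour 1 to the same libraries was -0.41 to -0.37. In bulk tissue, fewer cells of a type and less RNA per cell cannot be told apart.

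None of the 78 tested subunits passed the test between tumour and non-tumour. The background rate of calls was 0%, and 0 members had an unadjusted p under 0.05 in edgeR. The median log2 fold change of the members was 0.03, against 0.01 for all genes tested, and 46 of 78 members were above 0, against 52.2% of all genes. Fold changes ran from -0.27 for Atp5g2 to 0.76 for Atp5l, and the median standard error was 0.30. The medians were 0.04 in complex I, -0.11 in complex II, 0.02 in complex III, 0.03 in complex IV and 0.01 in complex V.

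Summed per complex as TPM (reads per length of 1 principal transcript per gene, scaled to a common total), the groups overlapped in all 5 complexes. Complex I members summed to 5547 ± 714 TPM in tumour (SD, n = 3) and 5343 ± 877 TPM in non-tumour (SD, n = 2). Complex II summed to 768 ± 102 TPM in tumour and 812 ± 65.7 TPM in non-tumour. Complex III summed to 3003 ± 402 TPM in tumour and 2894 ± 461 TPM in non-tumour. These spreads are wider than the differences between the means. Complex IV summed to 3990 ± 659 TPM in tumour and 3887 ± 627 TPM in non-tumour, and complex V to 5228 ± 456 TPM in tumour and 5283 ± 682 TPM in non-tumour.

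**Figure D1:**
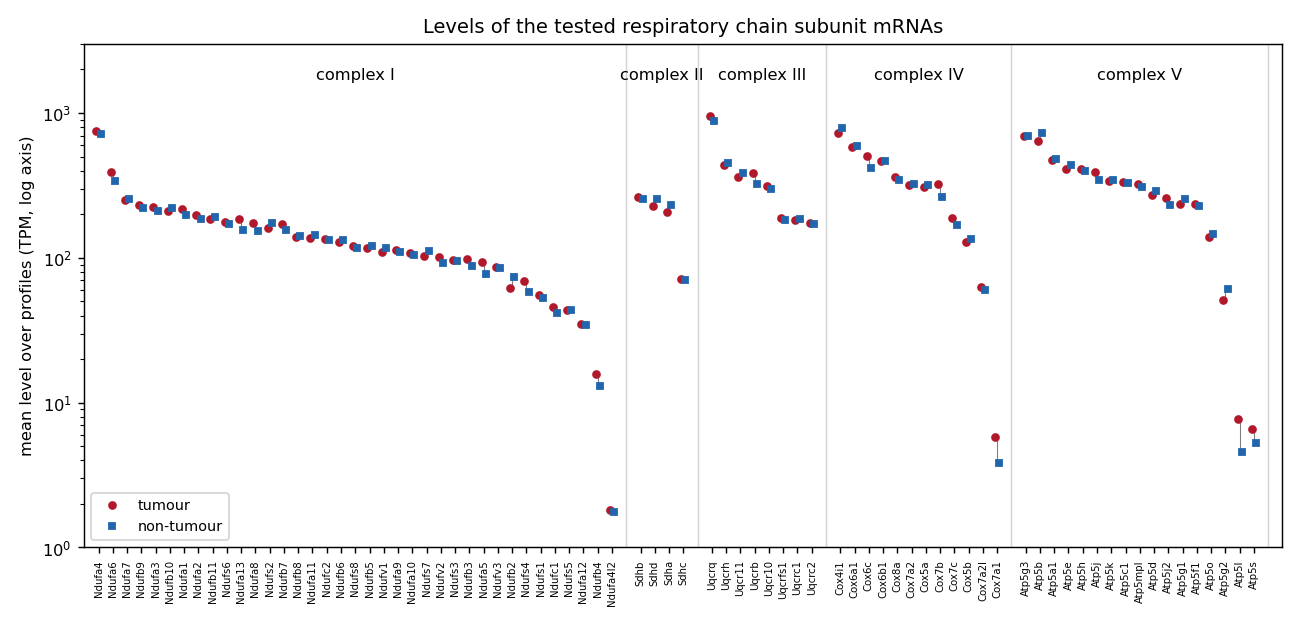
Mean level in TPM (log axis) of each tested subunit mRNA, ordered within its complex, with circles for the mean of 3 tumour profiles and squares for the mean of 2 non-tumour profiles. The levels run from 1.80 TPM for Ndufa4l2 to 927 TPM for Uqcrq.

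What the subunits did show was a shared pattern across the profiles that cut across the labels. Tumour 3 had the highest level of 68 of the 78 members, whereas it was the highest profile for 29.6% of other genes. Tumour 2 and 4 had the lowest level of 37 of the 78 members, against 1628 of 13572 other genes. Tumour 1 was lowest for 20 members and non-tumour 1 for 21, both nearer to the 19.5% of other genes that were lowest in each. Non-tumour 1 lay below non-tumour 2, 3 and 4 for 77 of 78 members, against 50.3% of other genes. On the log2 scale, relative to the mean of both non-tumour profiles, the median member lay at -0.19 in tumour 1, -0.22 in tumour 2 and 4 and 0.49 in tumour 3. It lay at -0.19 in non-tumour 1 and 0.19 in non-tumour 2, 3 and 4, values that mirror each other because their mean is the zero point. Summed over all members, the level was 9127 CPM (reads scaled to a common library size) in tumour 1, 8906 in tumour 2 and 4 and 13287 in tumour 3, against 9210 in non-tumour 1 and 11540 in non-tumour 2, 3 and 4. The tumour profiles thus lay both below and above the non-tumour ones. Ribosomal protein genes, read from lists, shared part of this pattern. Non-tumour 1 lay below non-tumour 2, 3 and 4 for 78 of 79 cytosolic ones and 46 of 48 of the mitochondrial large subunit. Relative to the mean of both non-tumour profiles, 64 and 44 of these lay above 0 in tumour 3, against 72 of 78 members. In tumour 1 they differed, with 65 and 21 above 0, against 15 of 78 members. The cytosolic ones were not highest in tumour 3. They summed to 11329 CPM there, below 11498 in tumour 1 and 12108 in non-tumour 2, 3 and 4. The sum of the mitochondrial ones was highest in tumour 3, at 1831 CPM.

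**Figure D2:**
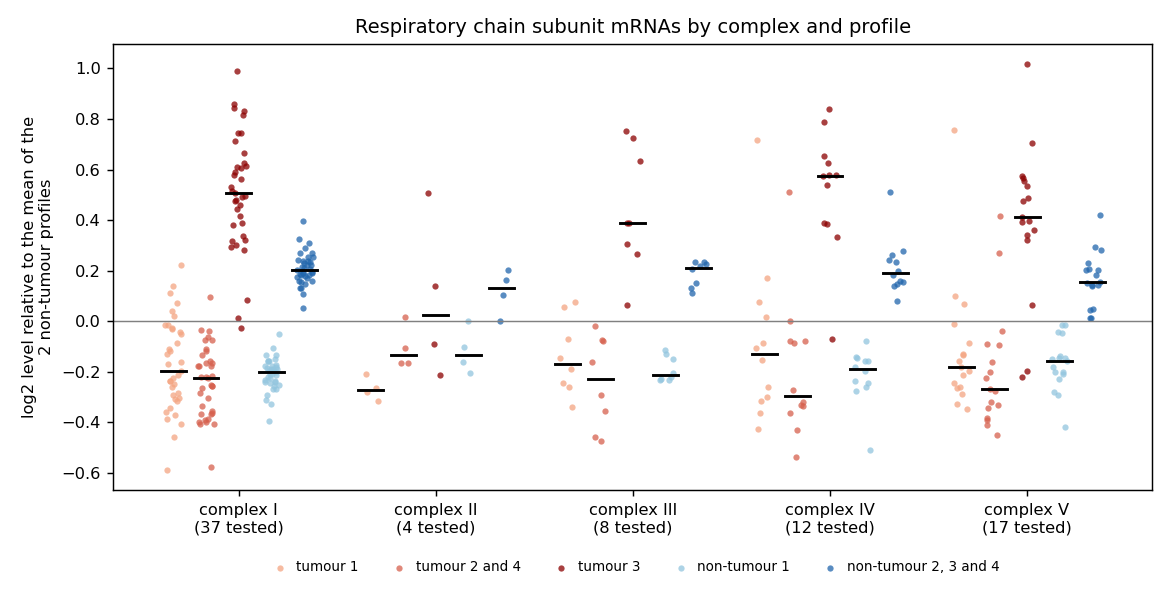
Log2 level of every tested subunit in each of the 5 profiles relative to the mean of the 2 non-tumour profiles, by complex, with a black bar at the median. In complexes I, III, IV and V tumour 3 stands highest, with medians of 0.51, 0.39, 0.58 and 0.41, and complex II is near 0 at 0.02.

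Transcript length moved with the level in tumour 3. Subunit mRNAs are short, with a median principal transcript of 760.5 bases against 2688.5 for all tested genes. Other genes with transcripts up to 600 bases had a median of 0.51 in tumour 3, and those over 5000 bases -0.29 in the same library. Over members, Spearman's rho between length and deviation in tumour 3 was -0.28 (n = 78 genes), and over other genes -0.35 (n = 13572 genes), given as descriptions because genes of a library are not independent. The other tumour profiles differed from this, with rho of -0.09 over members and 0.01 over other genes in tumour 1, and 0.44 over members and 0.09 over other genes in tumour 2 and 4. In non-tumour 1 rho was 0.39 over members and 0.33 over other genes, and non-tumour 2, 3 and 4 mirror it. Members up to 1000 bases had a median of 0.52 in tumour 3 and those over 1000 bases 0.34. Measured against the trend of all other genes of the same length, the members' median excess was -0.19 in tumour 1, -0.15 in tumour 2 and 4 and 0.10 in tumour 3, against -0.08 in non-tumour 1 and 0.08 in non-tumour 2, 3 and 4. The median in tumour 3 was thus 0.49 before and 0.10 after this step, and 55 of 78 members lay above the trend there. Below the trend were 63 of 78 members in tumour 1 and 69 of 78 in tumour 2 and 4. What produced the length trend was not tested.

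**Figure D3:**
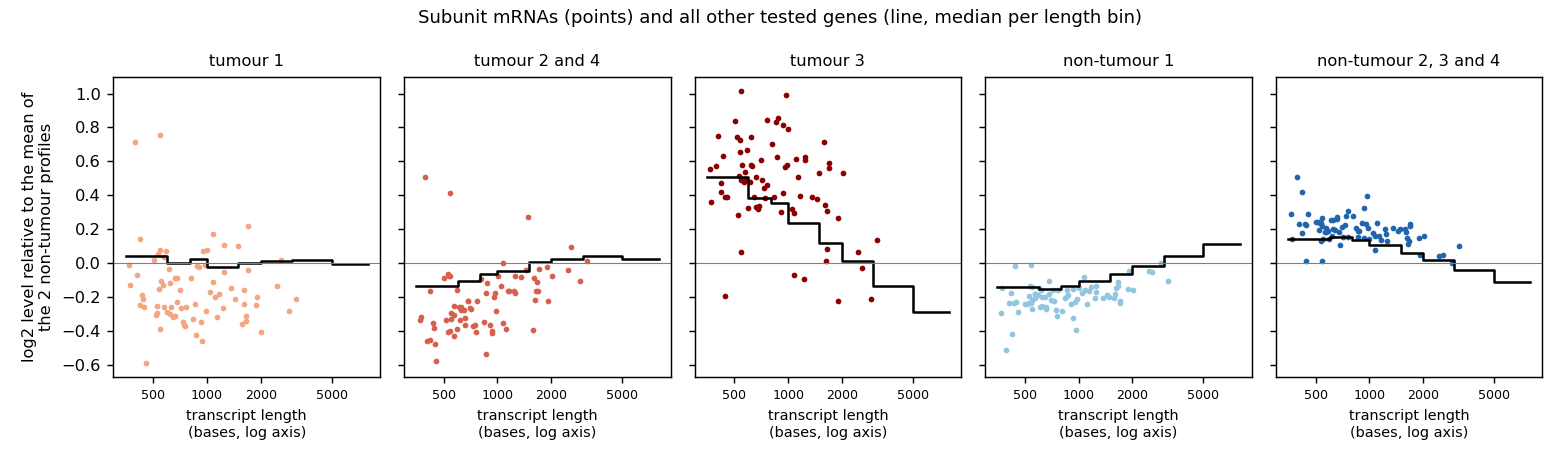
Log2 level relative to the mean of the 2 non-tumour profiles against principal transcript length (bases, log axis), 1 panel per profile, with points for the 78 tested subunits and a stepped line for the median of all other tested genes per length bin. In tumour 3 both the line and the points fall with length, from 0.51 in other genes up to 600 bases to -0.29 over 5000 bases.

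Complex I is the largest of the complexes, and its 37 members all passed the filter. The core subunits, which carry the flavin and the iron-sulfur clusters, stood lower in tumour 3 than the accessory ones, with medians of 0.32 over 7 core genes and 0.52 over 30 accessory genes. The core genes have longer transcripts, with a median of 1623 bases against 718, and their excess over the length trend in tumour 3 was 0.03, against 0.20 for the accessory genes. Ndufs1, the largest iron-sulfur subunit (chr1:63143596-63176833), was flat. It had 89.1, 90.9, 86.1 and 96.5 CPM in tumour 1 to 4, against 84.7, 91.3, 91.5 and 89.8 CPM in non-tumour 1 to 4. All 8 values lay within a narrow band, and the groups overlapped.

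Ndufa4 was the most abundant member of this name group, at 739 TPM. Its levels were 272, 232, 386 and 233 CPM in tumour 1 to 4, against 233, 334, 325 and 335 CPM in non-tumour 1 to 4. Tumour 3 was highest and tumour 2, tumour 4 and non-tumour 1 lowest, so the groups overlapped fully (log2 fold change 0.06, SE 0.30). Its paralogue Ndufa4l2, known as a hypoxia-responsive gene, took only 0.175% to 0.320% of the pair's TPM, with 157 reads over all libraries. Ndufa6, a small accessory subunit, followed in abundance, with 134, 113, 202 and 116 CPM in tumour 1 to 4 and 112, 147, 139 and 150 CPM in non-tumour 1 to 4.

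The lowest p-values of complex I belonged to Ndufs4 and Ndufa13. Ndufs4, an accessory subunit whose loss causes a Leigh-like disease in mice, averaged 75.8 ± 15.9 CPM in tumour (SD, n = 3) and 63.7 ± 14.4 CPM in non-tumour (SD, n = 2). The groups overlapped, and the log2 fold change was 0.24 (SE 0.25), at an edgeR adjusted p of 0.995. Ndufa13, also known as GRIM-19, averaged 150 ± 39.2 CPM in tumour and 126 ± 16.3 CPM in non-tumour, with a log2 fold change of 0.24 (SE 0.27). Ndufb4 (log2 fold change 0.29, SE 0.43) and Ndufb2 (-0.23, SE 0.36) marked the ends of the range, and neither passed the test. The levels of both are uncertain, since 37.0% of the 50-base stretches of Ndufb4 also occur in transcripts of other genes and 31.9% of Ndufb2 is overlapped by another gene on the same strand. Ndufb1-ps, left out by the rule because the annotation calls it a non-coding RNA, followed the members, with 51.0, 51.7, 103 and 51.3 CPM in tumour 1 to 4 and 48.7, 87.4, 80.0 and 83.5 CPM in non-tumour 1 to 4.

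Complex II, succinate dehydrogenase, is the only complex with no mitochondrially encoded subunit and is also an enzyme of the citric acid cycle. Sdha, the flavoprotein that oxidises succinate (chr13:74322254-74350280), had 352, 406, 369 and 390 CPM in tumour 1 to 4, against 428, 422, 434 and 427 CPM in non-tumour 1 to 4. Every tumour library lay below every non-tumour library. The means were 373 ± 23.2 CPM over 3 tumour profiles and 428 ± 0.0959 CPM over 2 non-tumour profiles, and the log2 fold change was -0.21 (SE 0.20), at an edgeR adjusted p of 0.995. Among the 78 members, 5 had tumour and non-tumour profiles that did not overlap, against 18.3% of all genes tested. They were lower in tumour for Sdha, Atp5b and Atp5g2 and higher for Atp5l and Cox7a1. The members' share is below that background.

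Sdhb, the iron-sulfur subunit, was instead highest in tumour 3. It had 149, 162, 265 and 170 CPM in tumour 1 to 4, against 166, 212, 203 and 209 CPM in non-tumour 1 to 4, and the groups overlapped. The membrane anchors Sdhc and Sdhd stood less high in tumour 3, at 0.14 and -0.09 relative to the mean of both non-tumour profiles (log2). Sdhd averaged 177 ± 10.7 CPM in tumour and 202 ± 40.0 CPM in non-tumour, and Sdhc averaged 142 ± 17.1 CPM in tumour and 144 ± 14.6 CPM in non-tumour. The 4 subunits thus had log2 fold changes of -0.21, 0.04, -0.03 and -0.20 for Sdha, Sdhb, Sdhc and Sdhd.

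Complex III, the cytochrome bc1 complex, had its core proteins Uqcrc1 and Uqcrc2 and the Rieske protein Uqcrfs1 at medians of -0.25 in tumour 1, -0.08 in tumour 2 and 4 and 0.31 in tumour 3. The 5 small subunits spread more, with -0.07, -0.35 and 0.63 in those profiles. Uqcrq, a small membrane subunit, was the most abundant of all members at 927 TPM. It had 217, 168, 383 and 164 CPM in tumour 1 to 4, against 194, 260, 267 and 276 CPM in non-tumour 1 to 4. Tumour 2 and 4 were the lowest and tumour 3 the highest, and edgeR's adjusted p was 0.995 (log2 fold change 0.14, SE 0.39). Uqcrh, the hinge protein, was not high in tumour 3. It had 166, 125, 165 and 132 CPM in tumour 1 to 4, against 135, 186, 179 and 185 CPM in non-tumour 1 to 4. Uqcrb (log2 fold change 0.26, SE 0.29) and Uqcr11 (-0.10, SE 0.31) were the ends of the range, and 43.2% of the 50-base stretches of Uqcrb occur in other genes too.

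Complex IV, cytochrome c oxidase, is the complex with most paralogous isoforms, where a general form is replaced by another form in muscle, lung, testis or other tissues. In these libraries the general forms made up nearly all of the mRNA. Cox4i1, a regulatory subunit, took 99.95% of its pair's TPM in its lowest library, and Cox6a1, Cox6b1 and Cox8a took 99.9%, 99.4% and 99.6% in theirs. Cox7a2 took 97.7% to 99.2% of its pair with Cox7a1. The heart and muscle forms Cox6a2 and Cox8b had 9 and 15 reads over all 8 libraries. The lung form Cox4i2 had 6 reads and the testis form Cox6b2 had 33, of which 15 were in tumour 1. The testis forms Cox7b2 and Cox8c had 0 reads. This allows up to 0.137 CPM in tumour 1, the deepest library, and up to 0.194 CPM in non-tumour 3 (3 counts, counting error only). These limits use the total reads of each library, without the scaling applied to the other CPM values. Markers of striated muscle were also scarce: 5 of 9 had 0 reads and none was tested. Cox4i2, Cox6a2, Cox6b2, Cox7b2, Cox8b and Cox8c were 6 of the 7 members that failed the filter, and the other was a second gene ID of Atp5o with 0 reads.

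**Figure D4:**
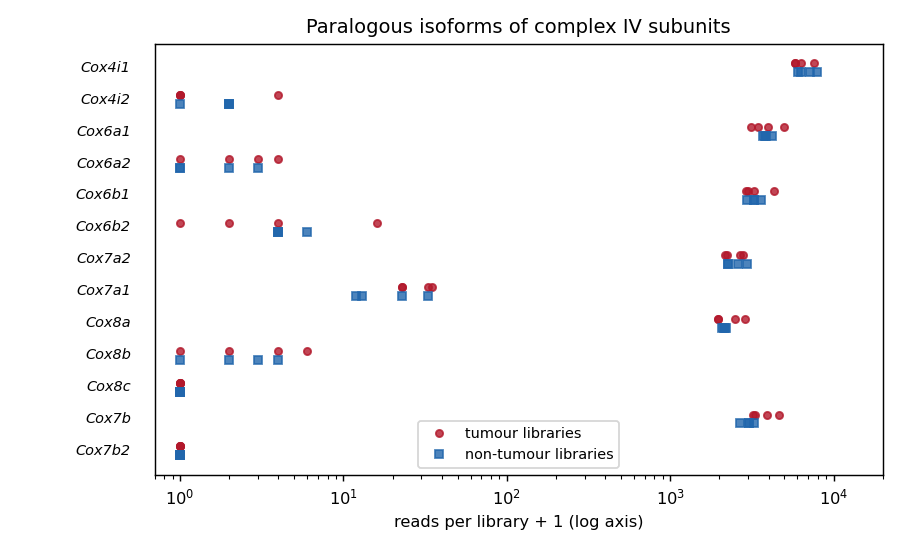
Reads of each paralogous complex IV isoform per library, plus 1, on a log axis, with circles for 4 tumour and squares for 4 non-tumour libraries. General forms hold 1962 to 7958 reads, and the other forms hold 0 to 34 reads in every library of either group.

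Cox7a1, the form of heart and muscle, was the only other form above the filter, with 187 reads. It had 1.55, 1.08, 1.39 and 1.58 CPM in tumour 1 to 4, against 0.605, 1.86, 0.750 and 1.37 CPM in non-tumour 1 to 4. Its profiles did not overlap but its libraries did, and near-identical libraries differed by more than the groups. Cox4i1 had 287, 286, 482 and 288 CPM in tumour 1 to 4, against 305, 463, 428 and 450 CPM in non-tumour 1 to 4. Here 3 tumour libraries and non-tumour 1 were low, and the rest were high (log2 fold change -0.11, SE 0.33). Cox6a1 gave a log2 fold change of -0.01 (SE 0.34), Cox6b1 0.03 (SE 0.34), Cox8a 0.09 (SE 0.31), Cox5a -0.05 (SE 0.29), Cox5b -0.03 (SE 0.38) and Cox7a2 -0.03 (SE 0.28). Cox7b, with 178, 158, 292 and 163 CPM in tumour 1 to 4 and 153, 189, 183 and 190 CPM in non-tumour 1 to 4, had the highest log2 fold change of the general forms at 0.30 (SE 0.31). Cox7a2l, which helps to join complexes III and IV into supercomplexes, was level at 42.5 ± 3.68 CPM in tumour (SD, n = 3) and 41.4 ± 3.22 CPM in non-tumour (SD, n = 2).

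Complex V joins a catalytic head (F1) to a proton-driven rotor. Atp5b, the catalytic beta subunit (chr10:128083273-128090391), had 783, 762, 770 and 775 CPM in tumour 1 to 4, against 868, 929, 931 and 920 CPM in non-tumour 1 to 4. Each tumour library lay below each non-tumour library. The means were 774 ± 7.94 CPM in tumour and 897 ± 41.7 CPM in non-tumour, and the log2 fold change was -0.22 (SE 0.22), at an edgeR adjusted p of 0.995. Atp5a1, the alpha subunit, had a log2 fold change of -0.04 (SE 0.22). These subunits of the head are among the longer transcripts of the members, at 1916 and 2471 bases.

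Atp5g1, Atp5g2 and Atp5g3 encode the same mature c subunit of the rotor ring and differ in their import sequences. Atp5g3 supplied 67.6% to 72.3% of their summed TPM in each library, Atp5g1 22.6% to 26.7% and Atp5g2 3.98% to 6.66%. Atp5g3 had 261, 260, 441 and 262 CPM in tumour 1 to 4, against 282, 335, 348 and 367 CPM in non-tumour 1 to 4. Tumour 3 was high and the groups overlapped. Atp5g2 had 14.8, 12.8, 15.0 and 13.6 CPM in tumour 1 to 4, against 17.03, 17.58, 16.97 and 17.58 CPM in non-tumour 1 to 4, so that no tumour library reached a non-tumour one. Its log2 fold change was -0.27 (SE 0.15, edgeR adjusted p = 0.995). Atp5g2 and Atp5g1 are uncertain, since 100% and 66.0% of their 50-base stretches occur in other genes and reads with several matches were not counted.

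Atp5l, the g subunit of the membrane part, had the lowest p of all members. It had 2.73, 2.21, 3.29 and 2.07 CPM in tumour 1 to 4, against 1.56, 1.86, 1.29 and 1.62 CPM in non-tumour 1 to 4, and the groups did not overlap. The log2 fold change was 0.76 (SE 0.33, edgeR adjusted p = 0.995). Here too 68.5% of the 50-base stretches occur in other genes, so this low level counts only part of the gene's reads. Atp5s, known as factor B, had a log2 fold change of 0.29 (SE 0.26) at a mean of 6.08 TPM. The other members of complex V ran from a log2 fold change of -0.10 to 0.19.

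**Figure D5:**
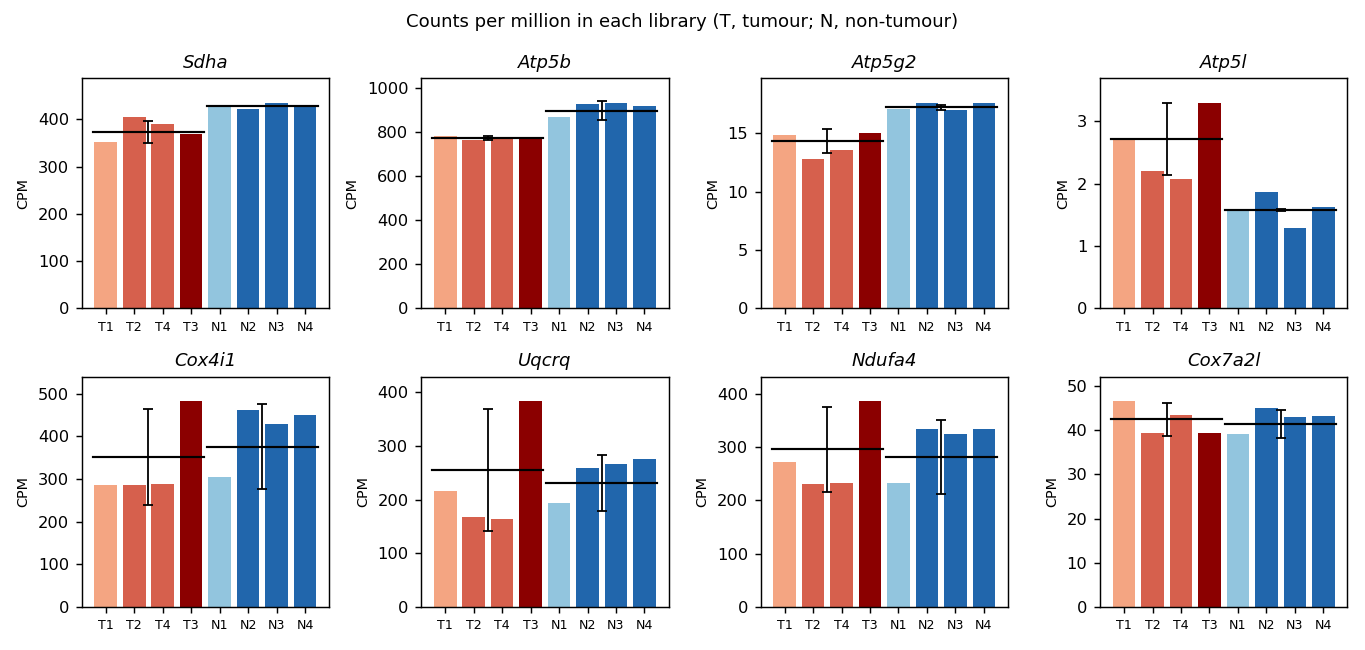
CPM of 8 subunit mRNAs in each library (T tumour, N non-tumour, near-identical libraries in the same colour), with the mean of profiles as a line and its SD as a bar (n = 3 tumour, n = 2 non-tumour). Sdha, Atp5b and Atp5g2 are lower in each tumour library than in each non-tumour library, Atp5l is higher, and Cox4i1, Uqcrq and Ndufa4 peak in tumour 3.

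Because most members were highest in tumour 3, the comparison was repeated without it. Tumour 3 had the highest level of 68 of the 78 members, so lower tumour levels without it were partly set by that choice. The shares of all genes given beside the members were not selected in this way and are no like background. Over the 4 profiles that were left, the members' median log2 fold change was -0.22, against -0.01 for all genes, and 7 of 78 members were above 0. The medians per complex were -0.22 in complex I, -0.22 in complex II, -0.20 in complex III, -0.23 in complex IV and -0.22 in complex V. The direction depended on which profile was left out. Without non-tumour 1 the median was -0.15, with 13 of 79 members above 0. It was 0.25 without non-tumour 2, 3 and 4 (76 of 79 above 0), 0.13 without tumour 1 (65 of 78) and 0.13 without tumour 2 and 4 (67 of 78). No member was called in any of these fits. Without tumour 3, both tumour profiles lay below both non-tumour profiles for 30 of the 78 members, against 17.4% of all genes tested, and above for 2, against 23.2%. In edgeR 0 members passed the adjusted threshold, 2 had an unadjusted p under 0.05 (Ndufb2 and Cox5b), against 2.82% of genes lower, and 5 other genes were called, all higher (0.0357%). Cox5b, which sits on the matrix side of complex IV, had the lowest p of these (log2 fold change -0.50, SE 0.17, adjusted p = 0.446 in edgeR).

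With the 7 libraries apart from tumour 3 taken as separate replicates, edgeR called 19 of 78 members lower in tumour and 0 higher, against 5.80% of all genes called lower. They were 9 of complex I, 1 of complex III, 5 of complex IV and 4 of complex V. In complex IV these were Cox5b, Cox6b1, Cox6a1, Cox4i1 and Cox5a, with log2 fold changes of -0.59, -0.41, -0.47, -0.52 and -0.40. In complex V they were Atp5d, Atp5g1, Atp5g2 and Atp5o, at -0.47, -0.44, -0.33 and -0.46. The limit of shared sequence given for Atp5g1 and Atp5g2 holds here too. For Atp5o and Cox5b, 35.5% and 25.9% of the 50-base stretches also occur in other gene IDs. This fit counts near-identical libraries several times, so its p-values are too small. It also leaves out the profile in which most members were highest, so the 5.80% of all genes is no like background. Leaving out non-tumour 1 in place of tumour 3, the same fit called 1 member lower, Sdhd, against 3.18% of genes. With all 8 libraries as replicates, edgeR called 0 members and 0.435% of genes.

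The other genes of the pathway were read from hand-written lists, and in edgeR none of them was called. Complex I assembly factors had a median log2 fold change of -0.01 (15 tested, 7 above 0), those of complex II 0.09 (4 tested, 3 above 0), those of complex III 0.05 (6 tested, 3 above 0), those of complex IV -0.05 (19 tested, 8 above 0) and those of complex V -0.0025 (4 tested, 2 above 0). Coa5 and Taco1, both needed to build complex IV, had the lowest p of their list, with log2 fold changes of -0.38 (SE 0.18) and -0.50 (SE 0.26). Atpif1, the inhibitor of the ATP synthase, had a log2 fold change of 0.53 (SE 0.26), with 28.6 CPM in tumour 1, 16.7 in tumour 2 and 4 and 18.2 in tumour 3, against 14.2 in non-tumour 1 and 14.9 in non-tumour 2, 3 and 4.

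Of the 13 mitochondrially encoded subunits, 7 had enough reads to be tested. The counts of the other 6 were near 0 in every library, at most 0.640 CPM (mt-Co3 in non-tumour 2). Reads with several matches were not counted, so these counts do not show that the 6 mRNAs were absent. How far the 6 share sequence with other genes was not tested. The sum, nearly all from the 7 tested genes, was 48389 CPM in tumour 1, 55312 in tumour 2 and 4 and 71045 in tumour 3. It was 55271 CPM in non-tumour 1 and 61129 in non-tumour 2, 3 and 4. The sum was highest in tumour 3, as were mt-Nd1, mt-Nd4 and mt-Cytb, whereas mt-Nd2, mt-Co1, mt-Nd5 and mt-Nd6 were highest in another profile. Over the 7 tested genes the median in tumour 3 was 0.34 and the excess over the length trend -0.14. Large-subunit mitochondrial ribosomal proteins, with 48 tested, had a median of 0.40 in tumour 3 and an excess over the length trend of 0.23. The citric acid cycle enzymes, with longer transcripts (median 2544 bases), had a median of 0.15 in tumour 3 and an excess over the length trend of 0.15. Regulators of respiratory genes, among them Nrf1, Gabpa, Esrra and Ppargc1a, had a median log2 fold change of -0.06 over 14 genes and 5 above 0.

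Markers of other cell types also moved between profiles. The 8 Kupffer cell markers, none of them at 0, summed to 269, 246 and 205 CPM in tumour 1, tumour 2 and 4 and tumour 3, against 685 CPM in non-tumour 1 and 220 CPM in non-tumour 2, 3 and 4. Non-tumour 1, in which 77 of 78 members were lower than in the other non-tumour profile, had the highest Kupffer and sinusoidal endothelial sums. Endothelial markers summed to 314 CPM in it and 150 CPM in non-tumour 2, 3 and 4. In tumour 1 and tumour 2 and 4 the members summed to 9127 and 8906 CPM, below the 9210 CPM of non-tumour 1. The Kupffer sums of these tumour profiles were 269 and 246 CPM, and their endothelial sums 210 and 194 CPM. The 7 cholangiocyte markers summed to 405, 193 and 22.7 CPM in the tumour profiles, against 35.0 and 36.6 CPM in the non-tumour ones. Spp1 and Tspan8 made up most of that sum, with 205 and 190 CPM in tumour 1, while Sox9 had 4.09 CPM in tumour 1 and 4.13 CPM in non-tumour 1, and Krt19 and Cftr had too few reads to be tested. Hepatocyte markers summed to 179510, 138202 and 121006 CPM in the tumour profiles, against 100992 and 114327 CPM in the non-tumour ones. Alb carried most of this sum, with 139428 CPM in tumour 1. The list as a whole had a median log2 fold change of 0.01, with 4 of 8 markers above 0, Tat at -0.81 (SE 0.37) and Cps1 at -0.69 (SE 0.33), and its median in tumour 3 was -0.28 relative to the mean of both non-tumour profiles. The part of these cell types in the members' levels was not tested.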

How the data were processed

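Bulk RNA sequencing of 8 mouse liver pieces was used as the authors' deposited read counts per gene. The count files were made by the authors with featureCounts 1.6.2, per the file headers, from GRCm38 exons (Ensembl 95) under strand setting 2, leaving multi-mapping reads uncounted. STAR 2.5.0 and Subread 1.6.2 appear in the submitters' processing notes. Trimming is not stated there.

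Symbols came from GENCODE M21, of the same build, for 54809 of 54838 gene IDs. Libraries under 10 chi-square per degree of freedom (genes with 20 or more reads) were summed. Tests used edgeR 4.0.16 in R (TMM, filterByExpr with minimum count 10 and total 15, glmQLFit robust, glmQLFTest, Benjamini-Hochberg over all tested genes, threshold 0.05). CPM used TMM-scaled library sizes, and a profile is the mean of its libraries. Standard errors were derived from each log2 fold change and its F statistic. TPM and length used 1 principal transcript per gene. Deviations for the plots and medians added 0.1 to the CPM before log2. Scripts were tested on simulated data.

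The members, lists, rules and alternatives were chosen with earlier results of these data known. Members were named by rule: per complex the 2 lowest p-values, the 2 highest TPM and the largest and smallest fold change, all listed paralogue groups, the Sdh genes, members that failed the filter, and up to 2 lowest p-values per other list. Ndufs1, Atp5a1 and Atp5s, the promoter windows, the TATAAA search (dropped once and put back), the 1000-base split, the choice of principal transcript, the forward-only 50-base search, the comparison with transcript length and the members called without tumour 3 were chosen after values were seen. Alternatives were other scalings, no filter, DESeq2, voom, all 8 libraries, a replicate block and leaving out profiles, libraries or abundant genes. Same-numbered libraries deviated together in 2 of 4 pairs, which cannot show whether they came from the same mouse.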

Additional observations from a re-analysis of the deposited data

How the results depend on the processing

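Under all 22 alternatives the members' call count kept at 0 except where single libraries were left out, and no named member was called in the main comparison. Depth limits Atp5l, Cox7a1 and Ndufa4l2, which had under 4 CPM. The genes called numbered 427 without an expression filter, 2 with DESeq2 and 56 with 8 libraries as separate replicates. Members above 0 made up 45.1% without a filter, 17.9% over 8 libraries, 14.1% with the replicate block and 26.9% with the transcript length trend removed, against 59.0% in the main comparison. The replicate block called 0 genes and gave a member median of -0.14. Same-numbered libraries correlated at 0.34, -0.15, 0.28 and -0.14. Near-identical libraries carry different numbers, so these correlations cannot show whether same-numbered libraries came from the same mouse. Leaving out 1 profile or library gave 0 to 1798 genes called (1798 without tumour 3, 766 without non-tumour 1 and 65 without tumour 1 over 8 libraries), 0 to 19 members (19 without tumour 3, and 1, Sdhd, without non-tumour 1), 6.41% (over 8 libraries without tumour 3) to 96.2% (without the profile of non-tumour 2, 3 and 4) of members above 0, and medians of -0.31 to 0.25 over all members, -0.32 to 0.27 in complex I, -0.23 to 0.06 in complex II, -0.28 to 0.22 in complex III, -0.36 to 0.24 in complex IV and -0.33 to 0.18 in complex V. The causes of these shifts were not tested.

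Signs of single members were unstable: 145 of 660 combinations of a named member and an alternative had the opposite sign, 18 of them past 1 standard error in either fit. Without a filter the log2 fold change was -0.0049 for Sdhb, -0.027 for Atp5g3, -0.015 for Cox6b1, -0.0082 for Cox7a2l and -0.037 for Ndufa4l2, which was -0.00080 with DESeq2 size factors and -0.25 with voom, where Cox7a2 was 0.019. Over 8 libraries it was -0.13 for Ndufa4, -0.084 for Sdhb, -0.10 for Uqcrq, -0.12 for Atp5g3, -0.13 for Cox6b1, -0.012 for Cox7a2l, -0.072 for Cox8a and -0.22 for Ndufa4l2. With the replicate block it was -0.14 for Ndufa4, -0.039 for Ndufb4, -0.12 for Sdhb, -0.17 for Uqcrq, -0.16 for Atp5g3, -0.18 for Cox6b1, -0.014 for Cox7a2l, -0.12 for Cox8a and -0.28 for Ndufa4l2. With the length trend removed it was -0.065 for Ndufa4, -0.056 for Sdhb, -0.061 for Uqcrq, -0.12 for Atp5g3, -0.13 for Cox6b1, -0.033 for Cox7a2l, -0.077 for Cox8a and -0.10 for Ndufa4l2; this setting was chosen after seeing the data. Leaving out 1 profile or library gave ranges of -0.66 to 0.45 for Ndufa4l2, -0.30 to 0.21 for Sdhb, -0.35 to 0.18 for Atp5g3, -0.41 to 0.20 for Cox6b1, -0.064 to 0.11 for Cox7a2l, -0.39 to 0.26 for Cox7a2, -0.32 to 0.35 for Ndufa4, -0.45 to 0.39 for Uqcrq, -0.33 to 0.26 for Cox8a and -0.35 to 0.76 for Ndufb4. They were -0.52 to 0.20 for Cox4i1, -0.47 to 0.19 for Cox6a1, -0.40 to 0.16 for Cox5a, -0.59 to 0.17 for Cox5b, -0.14 to 0.087 for Sdhc, -0.32 to 0.17 for Uqcrh, -0.53 to 0.15 for Uqcr11, -0.44 to 0.057 for Atp5g1 and -0.18 to 0.42 for Ndufa6. For Uqcrb they were -0.10 to 0.41, for Cox7b -0.10 to 0.45, for Ndufb2 -0.75 to 0.10, for Sdhd -0.40 to 0.027, for Ndufs4 -0.074 to 0.50 and for Ndufa13 -0.082 to 0.38.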
